A study of Mus musculus with 10 samples.

Results

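Homologous recombination and Fanconi repair was examined as a set of 35 genes, taken by symbol from the count table of a study of Ptbp1 in mouse dendritic cells. All 35 were found among the 19178 gene rows of that table, and all 35 passed the filter on low counts that left 18248 genes for testing. Poly(A) RNA was sequenced in 10 libraries of dendritic cells, which present antigen to T cells. Of these, 5 came from mice labelled Ptbp1-deficient and 5 from wild-type (WT) mice, both aged 8 to 10 weeks. The Ptbp1 product binds RNA and controls splicing. The labels give neither how Ptbp1 was removed, with which promoter or Cre, nor the tissue the cells came from, the sex of the mice, or any treatment. Nor do they state whether each library is its own mouse, and the p-values therefore reflect the variation among these libraries, which may be technical.

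Homologous recombination repairs broken DNA by copying the intact sister molecule. Broken ends are trimmed, the BRCA proteins prepare the single strand for pairing, and further factors assist the search and the exchange of strands. The Fanconi pathway unhooks crosslinks between DNA strands: a core complex attaches ubiquitin to FANCD2 and FANCI, nucleases cut beside the crosslink, and recombination finishes the repair. Both act mainly in S and G2 phase, and many of their genes are transcribed most in dividing cells. The genes were ordered by 8 roles: BRCA mediators, the BCDX2 and CX3 complexes, strand exchange factors, the Fanconi core, the FANCD2-FANCI (ID2) pair, helicases and nucleases, the MRN complex, and checkpoint kinases with their activator.

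Counts assigned to genes totalled 61759378 to 92697815 per deficient library and 50516163 to 66153758 per WT library. The 35 genes had 97 to 13161 counts in each library. Levels are given in TMM-normalized CPM (counts scaled to a common library total), as mean ± SD over 5 libraries a group, and they compare libraries within a gene, since they are not corrected for length. Ptbp1 itself stood at 74.4 ± 1.08 CPM in the deficient libraries and 294 ± 21.1 CPM in WT (log2 fold change -1.98, adjusted p = 1.9e-09), with no overlap. In the FPKM values the authors deposited, which are per transcript length, the fall of Ptbp1 was smaller. There it was at 28.7 ± 6.02 against 65.3 ± 2.81 FPKM (limma on log2(FPKM + 1), -1.18, adjusted p = 2.7e-05). Its paralog Ptbp2 was higher, at 135 ± 11.5 against 73.9 ± 5.84 CPM (adjusted p = 2.8e-06). Some libraries stood apart within their genotype. Deficient replicates 1 and 2 differed from each other by a chi-square per degree of freedom of 5.39 and from deficient replicates 3 to 5 by 33.4 to 54.0. WT replicates 2 to 4 differed among themselves by 8.63 to 10.4, from WT replicate 1 by 38.0 to 46.2 and from WT replicate 5 by 79.6 to 102. Of 12 dendritic cell markers 5 rose, 2 fell and 5 were not called, beside 21.9% of all genes tested that rose and 23.1% that fell. Such calls compare the genotypes and cannot check the label dendritic cells. Itgax, which rose, stood at 2168 ± 92.8 and 1521 ± 138 CPM in deficient and WT libraries, Flt3, not called, at 558 ± 22.0 and 604 ± 56.7 CPM, and Zbtb46, which rose, at 316 ± 18.9 and 266 ± 37.4 CPM. Irf8 rose (log2 fold change 0.96, adjusted p = 6.1e-05), while Irf4 (-0.37, adjusted p = 0.03) and Ccr7 (-0.36, adjusted p = 0.049) fell. A gene was called changed at an adjusted p under 0.05 in the quasi-likelihood test of edgeR, with p-values adjusted by Benjamini-Hochberg across the 18248 genes.

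Most of the repair genes were higher in the Ptbp1-deficient libraries and none fell. Of the 35, 23 rose, which is 65.7% of them, beside 21.9% of all genes tested. None of the 35 fell, beside 23.1% of all genes; 0 fell at an unadjusted p under 0.05 in edgeR, 0 fell with DESeq2, and 1, Fance, fell with limma-voom. The rises were modest, from 1.12-fold to 2.43-fold. Over the 35 genes the median log2 fold change was 0.37, or 1.29-fold, and over all genes tested it was -0.026. In 19 genes every deficient library lay above every WT library (54.3%, beside 17.2% of all genes), and in 0 every deficient library lay below (beside 16.2%). The 4 genes that rose while their groups overlapped were Brca2, Fancb, Fancg and Rbbp8. Rises over 2-fold were seen for 3 genes, Rad51ap1, Fancd2 and Fanci, or 8.57% of the set, beside 3.34% of all genes, and 12 of the 23 rises were over 1.5-fold. The 12 genes that were not called had log2 fold changes between -0.15 and 0.17.

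**Figure D1:**
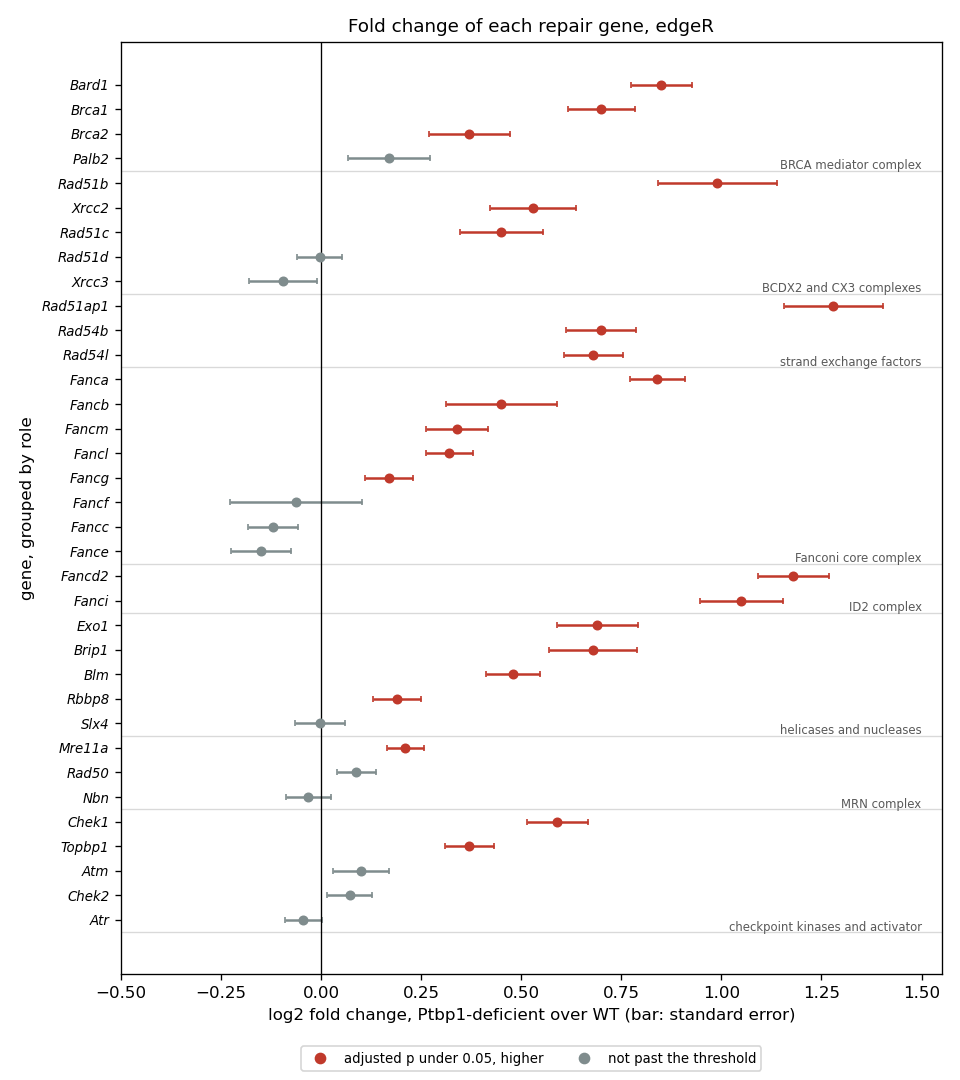
Log2 fold change (x axis) of each of the 35 repair genes (y axis), with its standard error as a bar, grouped by role. Red points passed the adjusted p threshold of 0.05 and are all to the right of 0, and grey points, 12 genes, lie between -0.15 and 0.17.

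The plot of fold changes by role gives the rises in each group, to be read beside the 21.9% of all genes tested that rose. All 3 strand exchange factors and both ID2 genes rose, as did 4 of 5 helicases and nucleases and 3 of 4 BRCA mediators. In the Fanconi core 5 of 8 rose, in the BCDX2 and CX3 complexes 3 of 5, in the checkpoint group 2 of 5, and in the MRN complex 1 of 3. These groups are small, and differences between their shares were not tested.

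Promoters of the set were read for letters that cell cycle regulators are known to bind. RefSeq (GRCm38.p6) gave a window of 250 bases before the start site for 27 of the 35 genes. Some windows lie in annotated exons of their own gene: all 250 bases for Fancl and Chek1, 208 for Fanci and 174 for Bard1. These windows enter the shares below as they stand. Exon content was looked up only for genes given full values. The E2F-like letters searched on both strands were TTCCCGC, the related form TTGGCGC and its variant TTGGCGG, and at least 1 of them was found for 11 of 27 genes (40.7%), against 14.4% of the 11200 genes tested that had a window. Among the set, 9 of 18 that rose and 2 of 9 not called (22.2%) held such letters. The share was 17.3% among all tested genes that rose and 25.8% among 31 genes of a cell cycle reference list. CCAAT, the letters of the NF-Y box, was found for 63.0% of the set and 39.9% of genes tested, and it was more frequent among the genes not called (77.8%) than among those that rose (55.6%). The letters TTTGAA were found for 1 gene, Bard1, or 3.7%, against 13.3% of genes tested. These shares are descriptions with no test, and a match is not a binding site. The windows below are those of 3 genes described later, Rad51ap1 (chr6:126939588-126939837, minus strand), Fanca (chr8:123318577-123318826, minus strand) and Rad51b (chr12:79297032-79297281, plus strand). They are shown because all 3 genes rose and no annotated exon lies in the window. Each is written 5′ to 3′ on the gene's strand and ends at the base before the start site, and capitals mark E2F-like and CCAAT matches on either strand.
Rad51ap1: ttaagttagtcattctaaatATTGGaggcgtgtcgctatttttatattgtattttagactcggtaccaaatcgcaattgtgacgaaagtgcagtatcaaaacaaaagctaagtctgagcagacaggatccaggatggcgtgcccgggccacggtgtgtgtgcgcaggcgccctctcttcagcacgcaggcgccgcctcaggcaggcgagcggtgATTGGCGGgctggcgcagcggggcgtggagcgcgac
Fanca: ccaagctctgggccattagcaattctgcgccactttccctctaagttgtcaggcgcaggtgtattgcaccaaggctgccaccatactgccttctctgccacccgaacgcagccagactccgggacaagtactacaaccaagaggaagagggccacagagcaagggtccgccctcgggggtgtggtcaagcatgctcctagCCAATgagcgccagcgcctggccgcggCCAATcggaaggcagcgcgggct
Rad51b: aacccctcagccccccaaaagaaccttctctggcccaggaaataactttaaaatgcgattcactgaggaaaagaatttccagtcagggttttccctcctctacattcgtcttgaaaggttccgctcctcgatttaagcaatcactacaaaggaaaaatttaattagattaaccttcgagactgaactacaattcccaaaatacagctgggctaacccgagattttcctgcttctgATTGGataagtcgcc
The Rad51ap1 window holds TTGGCGG at position -35 from the start site, overlapping ATTGG, the reverse complement of CCAAT, at -36, and a further ATTGG at -230. The Fanca window holds CCAAT at -50 and -23, and the Rad51b window holds ATTGG at -15. Neither of the latter pair has E2F-like letters.

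Among the BRCA mediators, which act on resected ends, the partners Brca1 and Bard1 rose most. Brca1 (chromosome 11, 101488764 to 101551955, minus strand of GRCm38), whose product promotes end resection, stood at 22.1, 23.0, 23.9, 24.6 and 26.9 CPM in deficient libraries 1 to 5 and at 12.5, 16.3, 16.3, 15.0 and 13.9 CPM in WT libraries 1 to 5. The groups did not overlap, with WT replicate 1 lowest and deficient replicate 5 highest. The means were 24.1 ± 1.83 and 14.8 ± 1.62 CPM, a log2 fold change of 0.70 (SE 0.083, adjusted p = 4.3e-05). Bard1, which encodes the ubiquitin ligase partner of BRCA1, was at 22.0, 24.3, 24.1, 25.5 and 28.1 CPM in the deficient libraries and at 12.8, 13.3, 15.1, 14.7 and 12.8 CPM in WT. All 5 deficient values lay above the highest WT value, and the means were 24.8 ± 2.26 and 13.7 ± 1.08 CPM (0.85, SE 0.077, adjusted p = 6.1e-06). Brca2, a mediator gene that acts after resection, rose less, at 16.4 ± 1.82 against 12.7 ± 1.61 CPM (0.37, adjusted p = 0.011). For Palb2, whose product bridges BRCA1 and BRCA2, the levels were 23.7 ± 0.995 and 21.1 ± 3.48 CPM (adjusted p = 0.20).

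The genes of the BCDX2 and CX3 complexes, small assemblies that assist homologous recombination, split. Rad51b, Xrcc2 and Rad51c rose, and Rad51d and Xrcc3 were not called. Rad51b stood at 3.01, 3.33, 3.44, 4.05 and 4.40 CPM in the deficient libraries and at 1.51, 2.11, 1.70, 2.13 and 1.74 CPM in WT. The lowest deficient library was above the highest WT library, with means of 3.65 ± 0.566 and 1.84 ± 0.272 CPM, a log2 fold change of 0.99 (SE 0.148, adjusted p = 0.00023). Xrcc2 was at 5.70, 4.94, 5.48, 5.25 and 5.94 CPM in the deficient libraries and at 3.12, 3.60, 4.06, 4.34 and 3.84 CPM in WT. Here too the groups were separate (0.53, SE 0.107, adjusted p = 0.0018). Rad51c was at 6.55 ± 0.219 against 4.79 ± 0.659 CPM (0.45, adjusted p = 0.0038). Rad51d was close to level, at 50.6 ± 2.34 and 50.7 ± 3.77 CPM, with a log2 fold change of -0.0033 (adjusted p = 0.97) whose sign turned with RLE normalization (0.0022). Xrcc3 was at 15.1 ± 1.51 and 16.1 ± 1.40 CPM (adjusted p = 0.39).

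All 3 strand exchange factors rose, and Rad51ap1 rose most of the whole set. Rad51ap1 (chromosome 6, 126923050 to 126939587, minus strand), whose product helps form the joint between DNA molecules, was at 17.2, 18.1, 18.7, 20.1 and 21.3 CPM in the deficient libraries. In WT it was at 6.34, 6.53, 9.72, 9.09 and 7.57 CPM. The groups were far apart, with a mean of 19.1 ± 1.61 against 7.85 ± 1.51 CPM. This is 2.43-fold, with a log2 fold change of 1.28 (SE 0.123, adjusted p = 9.4e-06). Rad54l, a motor protein gene whose product remodels the joint, stood at 30.1, 32.6, 30.2, 31.0 and 33.9 CPM in the deficient libraries and at 17.5, 20.6, 22.4, 20.2 and 17.6 CPM in WT. No WT library reached the lowest deficient library (31.5 ± 1.63 against 19.7 ± 2.13 CPM; 0.68, SE 0.074, adjusted p = 2.2e-05). Its relative Rad54b was at 11.9 ± 0.855 against 7.36 ± 0.769 CPM (0.70, adjusted p = 6.5e-05). Of the annotated exon length of Rad54b 35.8% is shared with Fsbp on the same strand, and of Rad54l 15.4% with Lrrc41 on the opposite strand, and the handling of such reads by the authors was not stated in the labels.

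**Figure D2:**
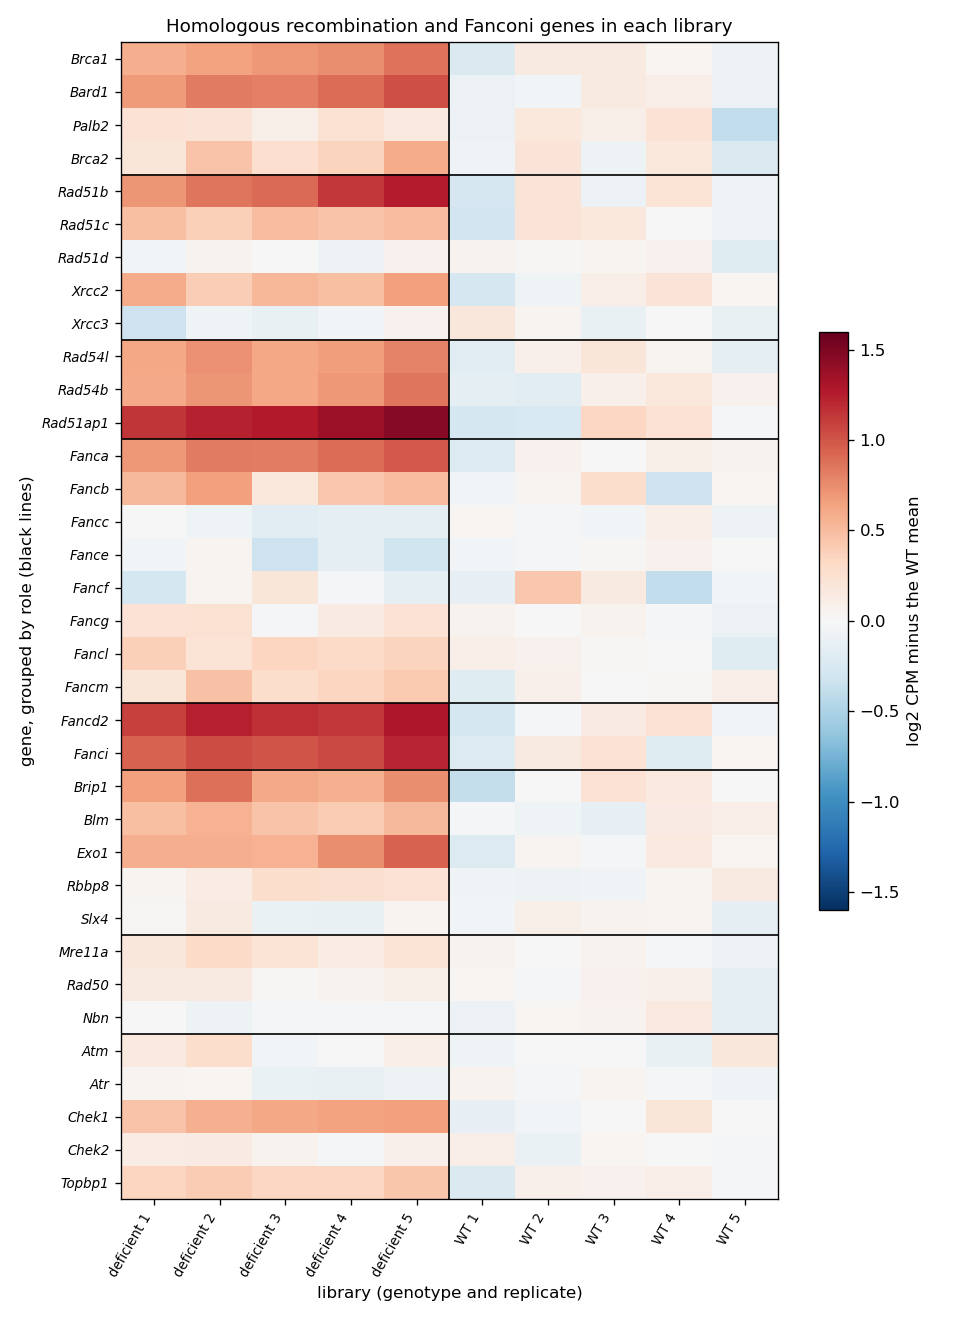
Log2 CPM minus the WT mean of the same gene for the 35 repair genes (rows, by role) in the 10 libraries (columns, Ptbp1-deficient on the left). Rad51ap1, Fancd2 and Fanci are deep red in all 5 deficient libraries, and the WT columns stay near white, with WT replicate 1 pale blue in many rows.

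In the Fanconi core complex, which carries the ubiquitin ligase of the pathway, Fanca stood out and the other members moved less or were not called. Fanca (chromosome 8, 123268300 to 123318576, minus strand), a scaffold subunit, was at 43.6, 48.3, 47.6, 50.4 and 53.4 CPM in the deficient libraries and at 23.2, 28.4, 27.0, 28.8 and 28.1 CPM in WT. The groups did not overlap (48.7 ± 3.62 against 27.1 ± 2.26 CPM; difference of 0.84 on the log2 scale, SE 0.069, adjusted p = 3.1e-06). Fancl, the catalytic subunit of the ligase, was at 31.5, 28.3, 30.8, 30.1 and 31.1 CPM in the deficient libraries and at 26.1, 25.5, 24.5, 24.3 and 21.3 CPM in WT. Its groups lay closer but were still separate (0.32, SE 0.059, adjusted p = 0.0010). Fancm, which encodes the DNA translocase that anchors the complex, was at 13.3 ± 0.994 against 10.5 ± 0.824 CPM (adjusted p = 0.0038). Fancb rose with overlapping groups, at 3.39 ± 0.404 against 2.48 ± 0.376 CPM (adjusted p = 0.019), a call lost without deficient replicate 2 (adjusted p = 0.051), without deficient replicates 1 and 2 (adjusted p = 0.11) and with a macrophage marker covariate (adjusted p = 0.25). So did Fancg, at 26.3 ± 1.95 against 23.4 ± 1.04 CPM (adjusted p = 0.039). Exons of Fanca share 10.5% of their length with Zfp276 and those of Fancl 13.7% with Vrk2, both on the opposite strand. Fancg is the weakest call of the set and was lost in 17 of the 23 other settings tried. Fancc, Fance and Fancf were not called, with log2 fold changes of -0.12 (adjusted p = 0.16), -0.15 (adjusted p = 0.12) and -0.063 (adjusted p = 0.79). In the deposited FPKM values Fancc was lower, at 4.69 ± 0.344 against 5.59 ± 0.291 FPKM (limma on log2(FPKM + 1), -0.21, adjusted p = 0.011).

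The ID2 pair, the substrate that the core complex ubiquitinates, rose over 2-fold in both its genes. Fancd2 (chromosome 6, 113531682 to 113597017, plus strand) stood at 25.3, 28.0, 26.5, 25.9 and 29.0 CPM in the deficient libraries and at 9.73, 11.6, 13.0, 13.8 and 11.5 CPM in WT. The lowest deficient library was well above the highest WT library, with means of 26.9 ± 1.53 and 11.9 ± 1.57 CPM. The log2 fold change was 1.18, or 2.26-fold (SE 0.089, adjusted p = 1.8e-06). Fanci was at 10.5, 11.2, 10.9, 11.4 and 12.7 CPM in the deficient libraries and at 4.67, 6.03, 6.39, 4.74 and 5.56 CPM in WT. It too was separate, 2.07-fold higher (1.05, SE 0.103, adjusted p = 1.1e-05). Of its exon length 15.95% is shared with Polg on the opposite strand.

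Of the helicases and nucleases, which unwind and trim DNA during repair, Exo1, Brip1, Blm and Rbbp8 rose. Blm, which encodes the helicase that dissolves crossed DNA joints, was at 15.5, 16.2, 15.2, 14.7 and 15.8 CPM in the deficient libraries and at 10.8, 10.5, 10.1, 12.1 and 11.9 CPM in WT. There was no overlap (log2 fold change 0.48, SE 0.067, adjusted p = 0.00013). Exo1, the gene of a nuclease for long-range resection, was at 7.87, 7.87, 7.73, 8.81 and 10.1 CPM in the deficient libraries and at 4.51, 5.41, 5.14, 5.87 and 5.37 CPM in WT. Deficient replicate 5 was highest, and every deficient library was above WT (0.69, SE 0.102, adjusted p = 0.00022). Brip1, the BRCA1-associated helicase gene, was at 14.2 ± 1.23 against 8.83 ± 1.37 CPM (0.68, adjusted p = 0.0004). Rbbp8, which encodes CtIP, the protein that starts resection with MRN, was at 45.7 ± 3.15 against 40.1 ± 2.73 CPM (0.19, adjusted p = 0.024) with overlapping groups, and it lost its call in 9 of the 23 other settings. Slx4, the gene of a nuclease scaffold, was at 40.0 ± 3.13 and 40.0 ± 2.58 CPM (adjusted p = 0.98).

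The MRN complex, which senses breaks and begins end trimming, moved little. Mre11a, its nuclease, was at 36.8, 40.0, 37.6, 35.2 and 37.5 CPM in the deficient libraries and at 33.6, 32.2, 33.8, 31.8 and 30.5 CPM in WT. The groups were separate by a small step (log2 fold change 0.21, SE 0.046, adjusted p = 0.0031). Rad50, its tethering subunit, was at 69.5, 69.3, 63.5, 65.4 and 67.1 CPM in the deficient libraries and at 64.0, 61.9, 66.1, 66.3 and 56.7 CPM in WT. Its groups overlapped (0.088, SE 0.049, adjusted p = 0.17). Nbn, the subunit that recruits ATM, was at 30.0 ± 0.732 and 30.6 ± 2.54 CPM (adjusted p = 0.69).

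In the checkpoint group, Chek1 and the ATR activator gene Topbp1 rose while the kinases Atm, Atr and Chek2 were not called. Chek1, the kinase downstream of ATR, was at 11.2, 12.2, 12.6, 12.9 and 13.0 CPM in the deficient libraries and at 7.51, 7.98, 8.16, 9.38 and 8.17 CPM in WT. Its groups did not overlap, and it rose by a modest amount (log2 fold change 0.59, SE 0.076, adjusted p = 7.9e-05). Topbp1 was at 135, 141, 134, 134 and 145 CPM in the deficient libraries and at 90.7, 112, 112, 115 and 105 CPM in WT. WT replicate 1 was lowest, and the groups were separate (138 ± 5.01 against 107 ± 9.70 CPM; 0.37, SE 0.061, adjusted p = 0.00049). Atm was at 45.7 ± 4.17 and 42.7 ± 3.33 CPM (adjusted p = 0.27), Atr at 49.96 ± 2.74 and 51.5 ± 1.87 CPM (adjusted p = 0.45), and Chek2 at 18.5 ± 0.825 and 17.6 ± 0.937 CPM (adjusted p = 0.33).

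Levels of different genes were compared per transcript length, with the FPKM values the authors deposited, which list 32 of the 35 genes and leave out Rad51b, Fancb and Exo1. Mean WT levels ran from 1.26 FPKM for Xrcc2 to 26.4 FPKM for Topbp1, with a median of 5.81 FPKM. Below Topbp1, Rad50 (15.0 ± 0.881 FPKM) and Nbn (14.9 ± 1.13 FPKM) were within their spread of each other in WT. The genes that rose had a median WT level of 3.08 FPKM over 20 genes, and those not called 8.97 FPKM over 12 genes. Of the 16 genes with the lowest WT levels 13 rose in the counts, and of the 16 with the highest 7 rose. Tested on log2(FPKM + 1) with limma, 15 of the 32 genes rose, 1 fell, and the median log2 fold change was 0.11. With a pseudocount of 0.1 the count was again 15 and the median 0.14. All 15 had also risen in the counts, whereas Brca2, Fancg, Fancm, Rbbp8 and Mre11a were called only there, among them Brca2 at 2.33 ± 0.280 against 2.28 ± 0.369 FPKM. A log2 scale with a pseudocount understates the change of low genes. The median in the counts, 0.37, is over all 35 genes and so not over the same set. It includes Rad51b (0.99), Exo1 (0.69) and Fancb (0.45), which FPKM leaves out. The cause of this difference between counts and FPKM was not tested. On log2(FPKM + 1) Fancd2 differed, at 6.27 ± 0.583 against 3.02 ± 0.219 FPKM (0.85, adjusted p = 4.9e-06).

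**Figure D3:**
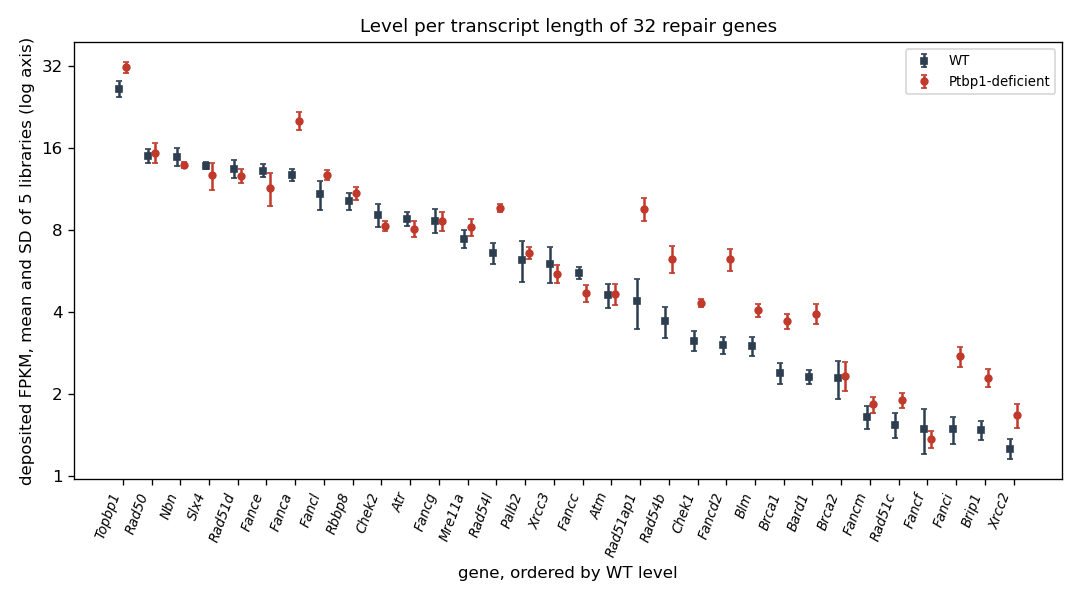
Deposited FPKM (y axis, log scale) of 32 repair genes in WT and Ptbp1-deficient libraries, as mean and SD of 5 libraries each, ordered by the WT mean. Topbp1 is highest at 26.4 FPKM in WT and Xrcc2 lowest at 1.26. At lower WT levels some gaps are wide, as for Fancd2 (deficient 6.27, WT 3.02 FPKM), and others small, as for Brca2 (2.33 and 2.28). Fanca, at a higher WT level, also has a wide gap (20.1 and 12.8 FPKM).

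Other genes of the same pathways included both rises and falls, to be read beside the 21.9% of all genes tested that rose and the 23.1% that fell. Differences between these lists and the 35 genes were not tested. Of 28 further homologous recombination genes tested 14 rose and 3 fell, and the median log2 fold change was 0.12. The clearest were Parpbp, Rmi2 and Polq. Parpbp, whose product restrains recombination, was at 11.2 ± 0.458 against 4.42 ± 0.283 CPM (1.34, adjusted p = 2.5e-07). Rmi2 of the BLM complex was at 8.85 ± 0.879 against 2.81 ± 0.517 CPM (1.66, adjusted p = 2.5e-06). Polq was at 24.0 ± 2.77 against 12.5 ± 0.489 CPM (0.94, adjusted p = 3.4e-06). It encodes the polymerase of theta-mediated end joining, and its rise is counted in this list all the same. Of 19 further Fanconi genes 7 rose and 5 fell (median 0.039). Mad2l2 rose (0.56, adjusted p = 1.6e-05), as did Uhrf1 (0.97, adjusted p = 2.7e-05), and Ercc4, the nuclease that unhooks crosslinks, fell from 37.2 ± 1.94 to 28.9 ± 1.62 CPM (-0.36, adjusted p = 0.00018). Of 23 other checkpoint and break-signalling genes 10 rose and 2 fell (median 0.11). Clspn, the adaptor through which ATR reaches CHEK1, rose (0.99, adjusted p = 1.9e-06), and so did the histone gene H2afx (0.86, adjusted p = 1.3e-05), while Mdc1, whose product binds that histone at breaks, fell (-0.34, adjusted p = 3.2e-05). A reference list of 40 cell cycle genes rose in all 40 (median 1.01), among them Plk1 (1.30, adjusted p = 2e-07).

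**Figure D4:**
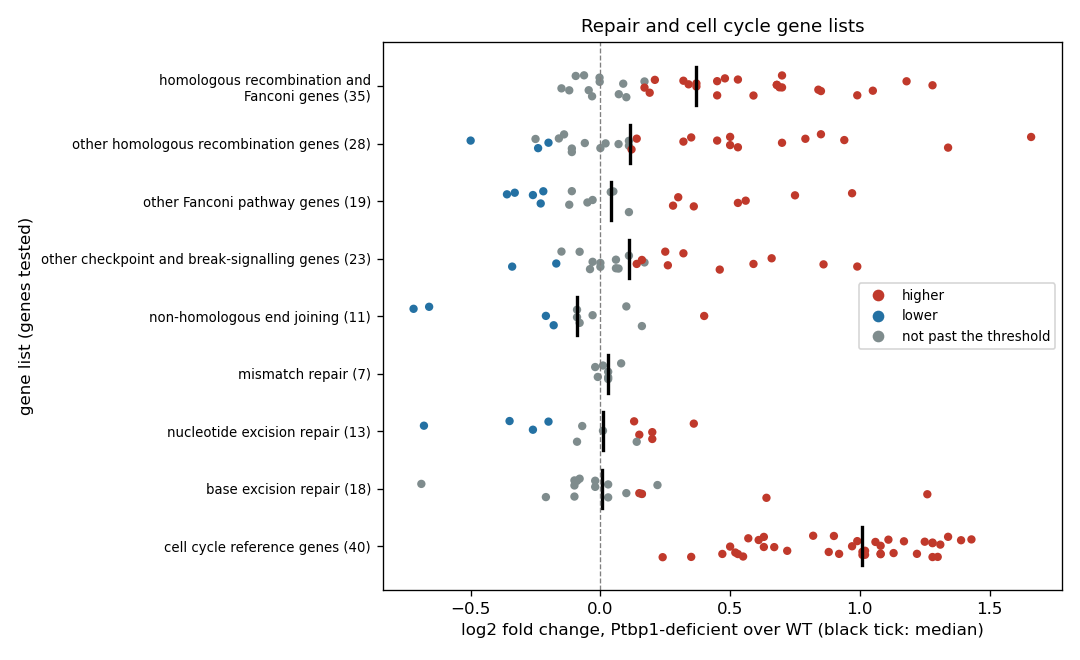
Log2 fold change (x axis) of every tested gene in the 35-gene set and in 8 other lists, with the list's median as a black tick, red for higher, blue for lower and grey for genes not past the threshold. The 35-gene set has a median of 0.37, the other 7 repair lists lie between -0.087 and 0.12, and the cell cycle list lies at 1.01.

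The mean level of the cell cycle genes was also higher in every deficient library than in every WT library. In the deficient libraries their mean log2 CPM was 5.55 to 5.70, and in WT 4.43 to 4.84. The median of the 23 risen repair genes, as log2 CPM minus the WT mean, was 0.56 to 0.65 in the deficient libraries and -0.19 to 0.10 in WT. Deficient replicate 5 was highest in both measures and held the highest value of 15 of the 23 genes, and WT replicate 1 was lowest in both and held the lowest value of 14. Within the deficient group the order was not shared throughout: replicate 3 had the second highest cell cycle level (5.66) and the lowest median of the risen genes (0.56). By the calls that defined them, the 12 repair genes that were not called had medians near the WT mean, of -0.04 to 0.05 in the deficient libraries and -0.10 to 0.06 in WT. With the cell cycle score as a covariate, edgeR called 0 of the 35 genes, 0 at an unadjusted p under 0.05, and 27 of all 18248 genes. The score separates the genotypes completely, so genotype and the score cannot be told apart in that fit, and in bulk RNA fewer cells of a type and less RNA per cell cannot be told apart either.

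**Figure D5:**
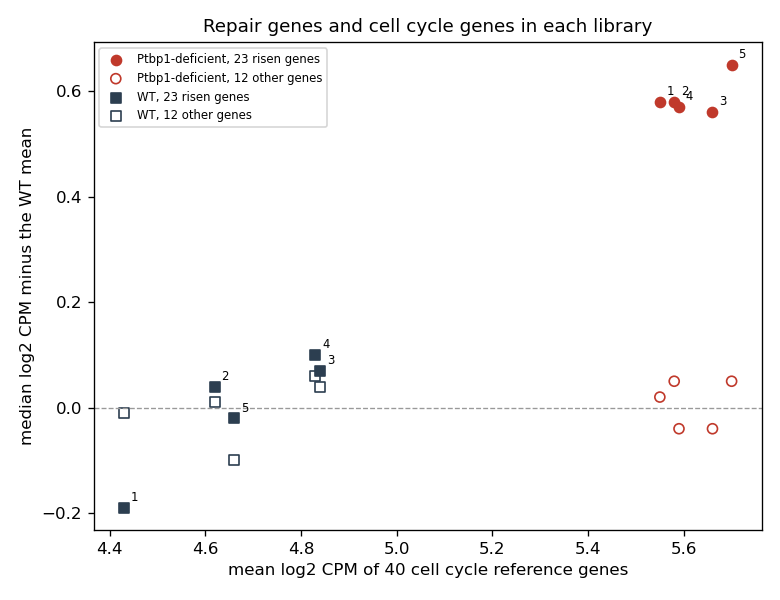
Mean log2 CPM of 40 cell cycle reference genes (x axis) and median log2 CPM minus the WT mean (y axis) in the 10 libraries, filled for the 23 repair genes that rose and open for the other 12, a split made by the calls themselves. Deficient libraries lie at 0.56 to 0.65 for the risen genes and near 0 for the others, and WT replicate 1 is lowest on both axes for the risen genes.

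Markers of several other cell types also differed between the groups, to be read beside the 21.9% of all genes tested that rose and the 23.1% that fell. Of 12 cDC1 markers 11 rose, with a summed level of 8159 to 10268 CPM in the deficient libraries and 4383 to 5922 CPM in WT, and of 11 cDC2 markers 9 fell. Of 16 macrophage markers tested 11 fell, with a summed level of 486 to 1265 CPM against 1642 to 4675 CPM. Of 10 NK cell markers 7 rose and 1, Klrd1, fell, with a summed level of 239 to 334 against 133 to 164 CPM. By mean log2 CPM the NK cell markers ran from 3.33 to 4.0 among deficient libraries. WT replicate 5 lay just below that range, at 3.03, whereas WT replicates 1 to 4 had 1.08, 0.44, -0.09 and 0.36. None of the markers tested is at 0, since the count table lists genes with at least 2 counts in every library. Of 12 B cell markers 9 fell, at 329 to 390 against 372 to 958 CPM, with the highest mean log2 levels in WT replicates 1 and 5. Of 10 plasmacytoid dendritic cell markers 6 fell and 1 rose, at 284 to 335 against 336 to 731 CPM. Of 9 T cell markers 0 rose and 1 fell, and 0 of 10 neutrophil and 0 of 7 erythroid markers were called. The mean log2 CPM of the macrophage markers was 3.24 to 5.48 in the deficient libraries and 5.71 to 7.39 in WT. This score therefore also separates the genotypes, and a fit with it cannot fully tell genotype from the score. With it as a covariate, 18 of the 35 repair genes rose and 1, Fance, fell. The calls lost there were those of Brca2 (adjusted p = 0.12), Rad51c (0.057), Fancb (0.25), Fancg (0.51) and Mre11a (0.095). Without WT replicates 1 and 5, which had the highest macrophage levels, 22 rose, and without deficient replicates 1 and 2, which had the lowest, 21 rose. The part of the cDC1, cDC2, NK cell, B cell and plasmacytoid markers in the result was not tested.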

How the data were processed

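The authors deposited gene counts for 10 libraries and FPKM values for genes at or above 1 FPKM in every library. RNA was isolated with TRIzol and sequenced in pairs of 150 bp, per the labels' protocols. The submitters' processing notes name HISAT2, StringTie and DESeq2 with no roles, and the human build GRCh38, although the deposited identifiers are mouse Ensembl ones. Which tool counted, whether by strand, and which made the FPKM values was not given in the sources.

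The 35 genes, their roles and all other lists were chosen with earlier results of these data known. Of the further homologous recombination list 1 gene is not reported here and enters no count. Symbols came from GENCODE M21 (GRCm38), which matched 99.3% of 19178 identifiers. edgeR 4.0.16 (limma 3.58.1, R 4.3.3) was used with filterByExpr, TMM and the quasi-likelihood test, genotype as the only term, and Benjamini-Hochberg adjustment over 18248 genes. Rows for reads outside genes (17.2% to 22.2%), ambiguous (1.79% to 1.94%), of low quality, not aligned or not unique were left out. Repeated FPKM identifiers were identical copies and used once. FPKM was tested with limma on log2 values with a pseudocount of 1. The fit was tested on simulated data.

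Full values were given for the 2 genes with the smallest adjusted p in each role. Other lists give up to 3 changed genes with the smallest adjusted p, or the gene with the highest CPM where none changed. The dendritic cell markers with values and the 3 promoters printed were chosen after their values were seen. Within each genotype no pair of libraries agreed within sampling noise, and the lowest chi-square per degree of freedom of the counts was 5.39. Pairs across genotypes were not compared, and no p-value was taken. The alternatives were normalization by RLE or upper quartile, limma-voom, DESeq2 1.42.0, other filters, a replicate block, FPKM, covariates for macrophage and cell cycle scores, and left-out libraries.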

Additional observations from a re-analysis of the deposited data

Results flagged for a closer look

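Single libraries standing apart from their group were looked for in 60 genes, or 120 groups of 5 libraries, with Dixon's ratio at a critical value of 0.71, a screen in which chance marks about 1 group in 20. It marked 2. Rad51d, a BCDX2 complex gene that was not called, stood at 44.1 CPM in WT replicate 5, while the other WT libraries were at 51.4 to 53.3 CPM. Neil3, a DNA glycosylase gene of base excision repair, stood at 35.5 CPM in deficient replicate 5, while the other deficient libraries were at 30.0 to 31.1 CPM.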

How the results depend on the processing

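Of the 23 genes that rose, 16 kept their call in every setting except the cell cycle covariate, and Rad51b and Exo1 among them could not be tested in FPKM. The count that rose stayed at 21 to 23 under RLE or upper-quartile normalization, DESeq2, limma-voom, both other filters, and omission of WT replicates 1 and 5 or deficient replicates 1 and 2, with 19 at an adjusted p under 0.01. It was 15 in FPKM with either pseudocount, where the median log2 fold change was 0.11 (pseudocount 1) or 0.14 (pseudocount 0.1) and 1 gene, Fancc, fell. It was 0 with the cell cycle covariate (median 0.01), and the median was 0.29 without WT replicates 1 and 5. Fance fell, 1 gene, with limma-voom, with the macrophage covariate and without deficient replicates 1 and 2. Leaving out each library in turn gave 21 to 23 rises, 0 to 1 falls (Fance without deficient replicate 2) and medians of 0.32 to 0.38. Replicate numbers did not pair the libraries: same-numbered deviations correlated at -0.096 to 0.114, and 1 of 5 deficient libraries correlated best with its own number. With the replicate number as a block 22 rose, 0 fell and the median was 0.37. The causes of these changes were not tested.

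The sign of some genes turned. The cell cycle and macrophage scores each separate the genotypes completely, so signs from those fits are not read as reversals by genotype. With the cell cycle covariate 0 of the 35 genes were called. With the cell cycle covariate the log2 fold changes were Brca1 -0.035, Palb2 -0.28, Rad51c -0.27, Xrcc2 -0.41, Xrcc3 0.19, Rad54b -0.012, Rad51ap1 -0.13, Fancf 0.0061, Fancm -0.0096, Brip1 -0.42, Exo1 -0.012, Rbbp8 -0.046, Rad50 -0.011, Atr 0.11 and Topbp1 -0.25, and among other genes Uhrf1 -0.43, H2afx -0.15, Xrcc6 -0.19, Polm 0.073, Msh6 -0.66, Cetn2 -0.29, Ung -1.12 and Ptbp3 -0.046. Rad51d and Slx4 turned positive with RLE (0.0022 and 0.0024), DESeq2 (0.0046 and 0.0047) and no filter (0.0091 and 0.0096). Leaving out single libraries gave -0.049 to 0.019 for Rad51d, -0.046 to 0.025 for Slx4, -0.15 to 0.053 for Fancf, -0.067 to 0.0089 for Nbn and -0.012 to 0.077 for Msh6. In FPKM Fancg was at -0.001 with either pseudocount, Chek2 at -0.11 and -0.13, Msh6 at -0.024 and -0.026, and Tdg at -0.062 and -0.068. The macrophage covariate gave Palb2 -0.021, Rad50 -0.017 and Msh6 -0.14. Msh6 was also at -0.011 with upper-quartile normalization, -0.054 with limma-voom, -0.091 without WT replicates 1 and 5, and -0.0084 without deficient replicates 1 and 2. Over the 23 settings other than the cell cycle covariate, 11 to 14 of the further homologous recombination genes rose, 5 to 7 of the further Fanconi genes, 7 to 11 of the checkpoint genes and 39 to 40 of the cell cycle genes. Falls in the further Fanconi list ran from 4 to 8 and in the further homologous recombination list from 2 to 6. Each of the 35 genes had at least 97 counts in every library, and counting error is widest for Rad51b, Fancb and Fancf.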

Other observations

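Other repair pathways are given beside the shares of all genes tested, 21.9% that rose and 23.1% that fell, and differences between lists were not tested. In non-homologous end joining 1 of 11 genes rose and 4 fell (median log2 fold change -0.087), and 1 fell in FPKM or with the macrophage covariate. The Ku subunit genes went opposite ways: Xrcc6 rose from 21.3 ± 2.14 to 28.1 ± 0.675 CPM (0.40, adjusted p = 0.0005), and Xrcc5 fell from 4.25 ± 0.789 to 2.70 ± 0.449 CPM (-0.66, adjusted p = 0.0054). Xrcc5 had only 165 to 335 counts per library, its groups overlapped, and it is not listed in FPKM. Polm, a gap-filling polymerase gene, fell from 17.5 ± 4.92 to 10.6 ± 0.307 CPM (-0.72, adjusted p = 0.0022). It stood at 18.7 and 25.7 CPM in WT replicates 1 and 5 and at 14.4 CPM in each other WT library. Without WT replicates 1 and 5 the log2 fold change was -0.44 (edgeR, adjusted p = 0.00015). Of 7 mismatch repair genes 0 were called by edgeR, DESeq2 or limma-voom and 0 had an unadjusted p under 0.05 in edgeR, while 1 fell in FPKM. Msh6 was at 61.9 ± 3.35 and 60.6 ± 7.68 CPM (adjusted p = 0.78).

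In nucleotide excision repair 5 of 13 genes rose and 4 fell, while 1 rose in FPKM and 2 with the macrophage covariate. Uvssa, which acts at stalled RNA polymerase, fell from 39.0 ± 2.99 to 24.4 ± 1.65 CPM (-0.68, adjusted p = 7.9e-06). The nuclease gene Ercc5 was lower (-0.35, adjusted p = 0.00021), and Cetn2 rose (0.36, adjusted p = 0.00086). In base excision repair 4 of 18 rose and 0 fell in edgeR, where 2 were lower at an unadjusted p under 0.05, and 1 fell with DESeq2, 0 with limma-voom and 4 with upper-quartile normalization. The 4 rises are near the share of all genes, and 1 gene rose in FPKM and 1 with the macrophage covariate. Neil3 rose from 13.1 ± 1.59 to 31.5 ± 2.27 CPM (1.26, adjusted p = 7.8e-07), the uracil glycosylase gene Ung rose (0.64, adjusted p = 0.0041), and Tdg rose by a small step (0.15, adjusted p = 0.012) that turned to -0.062 in FPKM. Ung and Tdg lost their calls with the macrophage covariate (adjusted p = 0.06 and 0.064), as did Polm (0.13) and Xrcc5 (0.071). The macrophage score separates the genotypes, so that fit cannot fully tell genotype from the score.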
